A study of Mus musculus with 20 samples.

Results

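Chemokine genes expressed by macrophages grown from mouse bone marrow (BMDM) were taken as a set of 10 genes chosen by name: Ccl2, Ccl3, Ccl4, Ccl6, Ccl7, Ccl9, Ccl12, Cxcl2, Cxcl10 and Cxcl16. The set was chosen with earlier results of these data known, so its shares of called genes are descriptions. Of these, 9 were among the 14456 genes of the normalized count table. Ccl12 was not listed and has no value here. Their mRNA was followed in 20 RNA-seq libraries that fall into 5 groups of 4. All BMDM came from male C57BL/6J mice of 8 to 12 weeks and were differentiated with M-CSF for 6 days. For the glucose experiment they spent 24 h in medium with 25 mM glucose (high glucose) or in 5.5 mM glucose plus 19.5 mM mannitol, a sugar alcohol that matches the osmotic load (normal glucose). For the exosome experiment, naive BMDM were exposed for 24 h to PBS, to exosomes of BMDM from normal glucose (BMDM-NG-exo) or to exosomes of BMDM from high glucose (BMDM-HG-exo), with 2000000000 particles added per ml and a separate exosome preparation for each sample. The sources used here give neither the glucose of the recipient medium nor whether the BMDM of 1 group came from separate mice. The p-values therefore measure the spread between these libraries, which may in part be technical. In bulk RNA a lower value from fewer expressing cells and one from less RNA per cell cannot be told apart.

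Chemokines are small secreted proteins that bind G protein-coupled receptors on leukocytes and guide their migration. The CC and CXC families are named for the spacing of their first cysteines. Macrophages are a major source of chemokines for monocytes, neutrophils and T cells, and many of the genes are switched on by NF-κB or by interferon signalling. Several CC genes lie side by side in the genome as the product of tandem duplication.

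The genomic positions are those of GENCODE M21 on GRCm38. On chromosome 5 lie Cxcl2 at chr5:90903871-90905938 on the plus strand and Cxcl10 at chr5:92346638-92348889 on the minus strand. On chromosome 11, Ccl2 (chr11:82035571-82037453) and Ccl7 (chr11:82045712-82047525) are neighbours on the plus strand. Ccl9 (chr11:83572919-83578636, minus), Ccl6 (chr11:83587882-83593087, minus), Ccl3 (chr11:83647844-83649355, minus) and Ccl4 (chr11:83662584-83664683, plus) form a second run. Cxcl16 lies apart at chr11:70453983-70459984 on the minus strand, where it overlaps Zmynd15 on the plus strand, and counting was stranded. Of the 50-base stretches of the Cxcl2 transcripts, 5.84% also occur in Cxcl3, so a few of its reads cannot be assigned to 1 gene alone. For Ccl9 1.97% of the stretches occur in transcripts of other genes, and for the other 7 listed members none did.

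RefSeq promoters on GRCm38.p6 were at hand for 5 of the 9 listed members, each with 250 bases before and 50 after the start of the gene, read 5′ to 3′ on the strand of the gene. Cxcl10 (chr5:92348840-92349139) and Cxcl2 (chr5:90903649-90903948) are shown because they carried the largest fold differences between BMDM-HG-exo and PBS among the called members, and Ccl9 (chr11:83578587-83578886) with its neighbour Ccl6 (chr11:83593038-83593337) because Ccl9 was called in high glucose while Ccl6 was not. Capitals mark matches on either strand to the kappaB motif, to the interferon response core GAAANNGAA or to the AP-1 motif TGANTCA.
Cxcl10: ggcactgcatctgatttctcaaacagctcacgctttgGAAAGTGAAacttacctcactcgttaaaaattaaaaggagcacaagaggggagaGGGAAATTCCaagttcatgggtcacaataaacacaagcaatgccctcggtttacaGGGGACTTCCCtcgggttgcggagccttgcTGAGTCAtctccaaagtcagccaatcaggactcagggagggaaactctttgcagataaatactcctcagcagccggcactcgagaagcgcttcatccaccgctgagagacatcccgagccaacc
Cxcl2: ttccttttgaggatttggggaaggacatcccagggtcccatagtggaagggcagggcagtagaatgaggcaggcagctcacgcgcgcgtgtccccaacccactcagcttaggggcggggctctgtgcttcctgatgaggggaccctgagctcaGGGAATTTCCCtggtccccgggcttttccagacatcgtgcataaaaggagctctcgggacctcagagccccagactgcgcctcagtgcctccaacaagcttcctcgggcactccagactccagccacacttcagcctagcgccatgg
Ccl9: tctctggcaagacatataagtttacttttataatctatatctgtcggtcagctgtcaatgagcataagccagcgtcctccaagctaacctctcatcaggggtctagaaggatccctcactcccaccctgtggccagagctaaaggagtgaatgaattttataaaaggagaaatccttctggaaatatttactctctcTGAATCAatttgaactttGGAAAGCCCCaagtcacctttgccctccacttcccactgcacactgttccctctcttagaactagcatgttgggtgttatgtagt
Ccl6: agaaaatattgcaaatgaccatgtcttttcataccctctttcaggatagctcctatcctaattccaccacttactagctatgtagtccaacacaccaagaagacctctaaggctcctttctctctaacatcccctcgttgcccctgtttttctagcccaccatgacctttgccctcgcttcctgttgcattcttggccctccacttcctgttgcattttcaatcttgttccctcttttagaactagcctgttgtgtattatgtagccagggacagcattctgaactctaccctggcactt
Cxcl10 held 3 kappaB matches, of which 2 overlap each other by all but 1 base, 1 interferon response core match and 1 AP-1 match. Cxcl2 held 2 overlapping kappaB matches, and Ccl9 held 1 kappaB and 1 AP-1 match. Ccl6 held none of the 3 motifs, and Ccl3 held 1 match to the interferon response core. Over 32851 RefSeq promoters of the same length, 8.46% held a kappaB match, 8.56% the interferon response core and 7.81% the AP-1 motif. A match describes the letters and not the binding of a factor. No promoter is shown for Ccl2, Ccl4, Ccl7 or Cxcl16.

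The libraries held between 34016445 and 56310712 reads on the listed genes, with a median of 43311931. All 10 macrophage markers were listed, among them Adgre1 (F4/80) at 31292 to 39687 and Csf1r (the M-CSF receptor) at 87079 to 123454 normalized counts. None of the 6 dendritic, 5 mast cell or basophil and 6 erythroid markers was listed. Of 10 neutrophil markers 6 were listed, led by Csf3r, which macrophages also express, at 4391 to 5902, whereas S100a8, S100a9, Ltf and Ngp stayed at or below 125. The summed neutrophil markers were at 5389 to 5954 in normal glucose, 4624 to 5358 in high glucose, 5983 to 6143 in PBS, 5580 to 5738 in BMDM-NG-exo and 4953 to 5705 in BMDM-HG-exo, so that they were lower without overlap in high glucose and in both exosome groups against PBS. Ighm was the 1 listed gene of 8 lymphocyte markers, at 2119 to 2973, and Cd3e and Cd79a were not listed. Of the stromal and endothelial markers, 5 of 8 and 2 of 5 were listed, with sums of 124 to 372 and 280 to 456. The summed macrophage markers were themselves uneven, at 648980 to 723199 in normal glucose, 830089 to 900299 in high glucose, 818159 to 865500 in PBS, 738869 to 796748 in BMDM-NG-exo and 756330 to 781883 in BMDM-HG-exo. Lyz2 alone stood at 447542 to 664964 over the 20 libraries, so these sums mostly follow 1 gene, as the neutrophil sums follow Csf3r. Of the 10 macrophage markers, 5 were called higher and 2 lower in high glucose (13.3% of all genes tested were called), with Mertk at -0.40 (log2). In BMDM-HG-exo against PBS 6 were called lower and 0 higher (4.84% of all genes tested). The macrophage sums moved in the same direction as Cxcl16, Ccl9 and Cxcl10 did in high glucose and in BMDM-HG-exo against PBS, as did the neutrophil sums in BMDM-HG-exo against PBS but not in high glucose. The part of either set of markers in those results was not tested.

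The listed members spanned a wide range of levels. Per kilobase of exon, and as means over the 20 libraries, Ccl9 stood at 4233, Ccl6 at 3509 and Cxcl16 at 3114 normalized counts, followed by Ccl3 at 1106 and Ccl4 at 742. Below them were Ccl2 at 69.8, Cxcl2 at 54.5, Cxcl10 at 51.1 and Ccl7 at 23.0. The spread between libraries was small for the abundant members, with coefficients of variation of 1.6% to 4.4% for Ccl9, 1.5% to 7.2% for Cxcl16 and 2.9% to 5.6% for Ccl6 within groups. It was wide for Ccl7, at 29.0% to 74.8%, where a library held as few as 3 reads. Reads per library ran from 40 to 131 for Ccl2, 42 to 237 for Cxcl10 and 58 to 173 for Cxcl2. Their coefficients of variation within groups reached 36.4%, 22.0% and 34.7%. Statements on Ccl7, Ccl2, Cxcl10 and Cxcl2 are limited by this depth, those on Ccl7 the most. The plot of normalized counts by group shows each library.

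**Figure D1:**
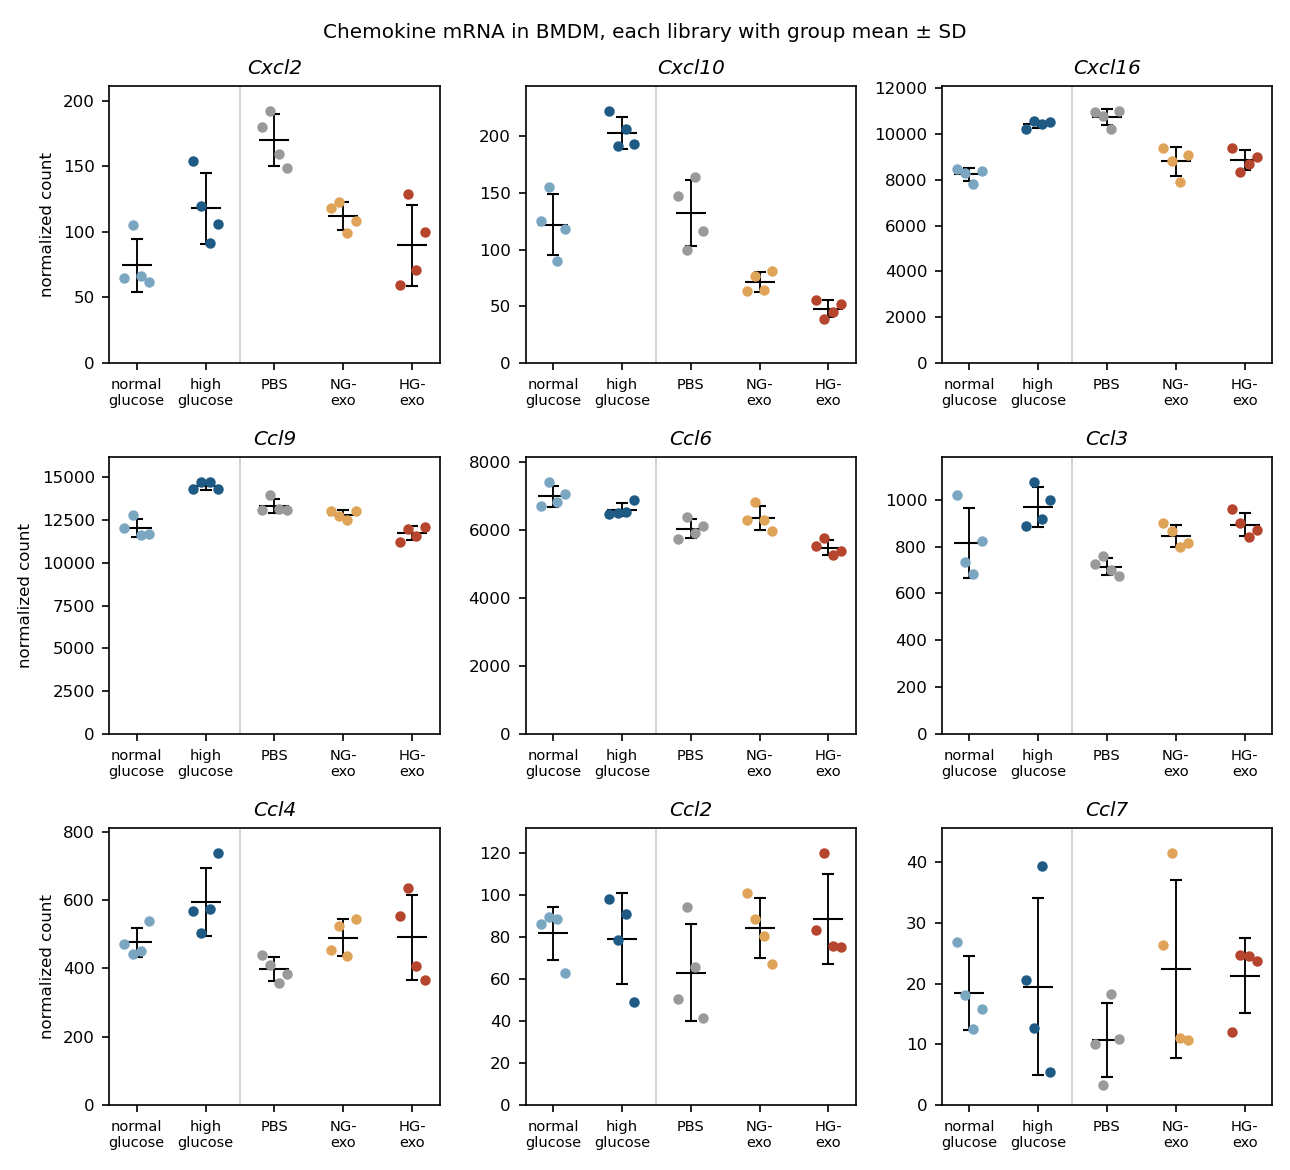
Normalized count (vertical axis, linear from 0) of the 9 listed chemokine genes in each library (points), with the group mean and SD (bars, n = 4 libraries); NG-exo and HG-exo stand for BMDM-NG-exo and BMDM-HG-exo. Cxcl10 was highest in high glucose (191 to 222) and lowest in BMDM-HG-exo (38.6 to 55.3), and Ccl7 libraries of 1 group differed by several fold.

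The first comparison asked what 24 h of high glucose did to the macrophages themselves. Cxcl10, Cxcl16, Ccl9 and Ccl4 rose, and limma called 0 of the 9 members lower, as did edgeR and DESeq2, with 1 member lower at an unadjusted p under 0.05. The threshold was an adjusted p (limma, Benjamini-Hochberg over all genes tested) under 0.05, which 13.3% of the 14425 tested genes reached, against 4 of the 9 members. The groups did not overlap for 3 of the 9 members, against 16.3% of all genes tested. The median log2 fold change of the members was 0.27, and that of all genes was -0.003.

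Cxcl10 encodes the interferon-inducible ligand of CXCR3, a receptor of activated T cells. Normal glucose libraries held 125, 155, 89.5 and 118 normalized counts, and high glucose libraries 222, 191, 206 and 193. Each high glucose library lay above each normal glucose library. The means were 122 ± 26.8 and 203 ± 14.3 (SD, n = 4 each), a log2 fold change of 0.75 ± 0.175 (SE), or 1.69-fold, with a limma adjusted p of 0.00249. Its call held in all 8 leave-one-out fits.

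Cxcl16 encodes a membrane-anchored chemokine that also acts as a scavenger receptor for oxidized lipoprotein and binds CXCR6 once shed. Normal glucose libraries held 8445, 8278, 7804 and 8382 normalized counts of it, against 10197, 10544, 10412 and 10518 in high glucose. The groups were far apart relative to their spread, with means of 8227 ± 291 and 10418 ± 158 (SD). The log2 fold change was 0.34 ± 0.0366 (SE; limma adjusted p = 1.05e-08), which is 1.27-fold.

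Ccl9, a CC chemokine that signals through CCR1, was the most abundant member per length. Its normalized counts were 12031, 12802, 11627 and 11718 in normal glucose, against 14299, 14720, 14716 and 14342 in high glucose. The groups did not overlap, and the log2 fold change was 0.27 ± 0.0357 (SE; limma adjusted p = 6.63e-07). Cxcl16 and Ccl9 were called in all 8 fits without 1 library.

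Ccl4, which encodes the CC chemokine MIP-1β, was at 472, 443, 451 and 538 in normal glucose compared with 567, 502, 573 and 737 in high glucose. The normal glucose library at 538 lay above the lowest high glucose library. The log2 fold change was 0.31 ± 0.104 (SE; limma adjusted p = 0.0402). The call was lost when any library other than normal glucose 6 or high glucose 2 was left out, with an adjusted p of up to 0.256. It was also lost without the variance trend in limma (adjusted p = 0.198) and with the library number as a replicate block (adjusted p = 0.113). Here and below, that block rests on the 2 library numbers that both glucose groups share. The labels do not say that libraries of equal number are paired.

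The remaining 5 members did not pass the test. Cxcl2, the neutrophil chemoattractant that binds CXCR2, was at 65.0, 105, 66.6 and 62.0 in normal glucose compared with 154, 120, 91.2 and 106 in high glucose. The ranges overlapped because of the normal glucose library at 105. The log2 difference of 0.66 had a 95% interval of 0.20 to 1.12 and a limma adjusted p of 0.0502. Without normal glucose 3 the adjusted p was 0.0136, and without high glucose 4 it was 0.0385. It also passed with a pseudocount of 8 (adjusted p = 0.0457), after quantile normalization (0.0248), by DESeq2 (0.0351) and with the library number as a replicate block (0.0421), so in 6 of 16 alternatives, and the adjusted p ran up to 0.197 in the others.

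Ccl3, which encodes MIP-1α, a ligand of CCR1, was at 1020, 733, 683 and 824 in normal glucose compared with 886, 1075, 916 and 998 in high glucose. The library at 1020 lay above 3 of the 4 high glucose libraries. The log2 difference was 0.26 with a limma adjusted p of 0.0510, which became 0.0013 without normal glucose 1, 0.0385 without high glucose 1 and 0.0455 with a pseudocount of 8. Ccl3 did not pass in the other 13 of 16 alternatives, and with the replicate block its log2 difference was 0.04 (adjusted p = 0.934).

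Ccl6, a further CCR1 ligand encoded next to Ccl9, was at 6705, 7418, 6831 and 7065 in normal glucose compared with 6477, 6507, 6529 and 6886 in high glucose. The log2 difference was -0.09 (limma adjusted p = 0.171), so that the neighbours Ccl9 and Ccl6 had fitted differences of opposite sign in these libraries, the second not past the threshold. After quantile normalization Ccl6 was called lower, at a log2 difference of -0.13 (adjusted p = 0.0229), the only 1 of 16 alternatives that called it, and its adjusted p ran up to 0.816 with the replicate block. Ccl2 and Ccl7, monocyte attractants that act through CCR2, overlapped between the groups. Their log2 differences were -0.08 (95% interval -0.58 to 0.42) and -0.17 (95% interval -1.20 to 0.86), which leaves sizeable changes in both directions within the error.

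**Figure D2:**
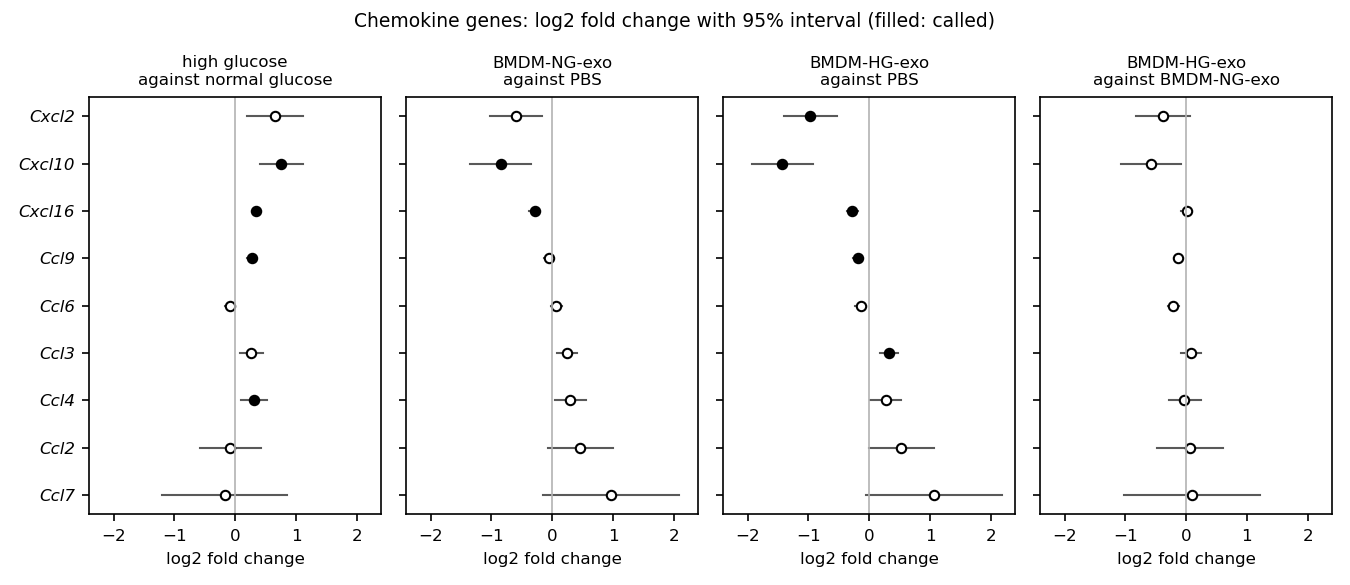
Log2 fold change of normalized count plus 1 (horizontal axis) for each listed chemokine gene in 4 comparisons, with the 95% interval from limma; filled points were called and open points were not, and intervals shorter than the point are hidden by it. Cxcl10 lies at 0.75 in high against normal glucose and at -1.43 in BMDM-HG-exo against PBS, while Ccl3 is positive in all 4 panels.

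The exosome experiment asked what exosomes of BMDM did to naive BMDM. In BMDM-HG-exo against PBS, Cxcl10, Cxcl2, Cxcl16 and Ccl9 fell and Ccl3 rose. The threshold was here a limma adjusted p under 0.05 together with a log2 fold change of 0.15 or more in either direction, which 4.84% of the 14413 genes tested reached, against 5 of the 9 members. The groups did not overlap for 5 of the 9 members and for 10% of all genes tested. The 5 calls held in all 12 leave-one-out fits. The 3 comparisons among the exosome groups share libraries, so they are not independent of one another.

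Cxcl10 was at 147, 99.7, 164 and 116 in PBS, at 63.8, 76.8, 64.2 and 81.3 in BMDM-NG-exo and at 55.3, 38.6, 45.2 and 52.2 in BMDM-HG-exo. The 3 groups were stepped without overlap, with means of 132 ± 29.0, 71.5 ± 8.86 and 47.8 ± 7.49 (SD, n = 4 each). In BMDM-HG-exo it was 0.372 times the PBS level, a log2 fold change of -1.43 ± 0.245 (SE; limma adjusted p = 0.000118).

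Cxcl2 was at 180, 192, 159 and 149 in PBS, at 118, 123, 98.9 and 108 in BMDM-NG-exo and at 59.4, 129, 70.7 and 99.9 in BMDM-HG-exo. Each exosome library lay below each PBS library, and the BMDM-HG-exo libraries were the most scattered, at 89.6 ± 31.1 (SD). The log2 fold change against PBS was -0.97 ± 0.216 (SE; limma adjusted p = 0.0031), which is 0.510 times the PBS level.

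Cxcl16 was at 10971, 10780, 10223 and 10988 in PBS, at 9391, 8806, 7916 and 9062 in BMDM-NG-exo and at 9400, 8347, 8705 and 8999 in BMDM-HG-exo. Both exosome groups lay below PBS without overlap and overlapped each other. Against PBS, BMDM-HG-exo differed by a log2 fold change of -0.28 ± 0.0435 (SE; limma adjusted p = 2.96e-05).

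Ccl9 was at 13100, 13981, 13169 and 13073 in PBS, at 13057, 12739, 12500 and 13016 in BMDM-NG-exo and at 11242, 11990, 11558 and 12119 in BMDM-HG-exo. The highest BMDM-NG-exo library lay just under the lowest PBS library, and the BMDM-HG-exo libraries lay below both groups. In BMDM-HG-exo against PBS the log2 fold change was small but tight, at -0.18 ± 0.0346 (SE; limma adjusted p = 0.000382).

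Ccl3 went the other way. It was at 724, 760, 699 and 675 in PBS, at 899, 868, 799 and 815 in BMDM-NG-exo and at 959, 900, 842 and 873 in BMDM-HG-exo. Each exosome library lay above each PBS library. In BMDM-HG-exo it exceeded PBS by a log2 fold change of 0.32 ± 0.0773 (SE; limma adjusted p = 0.00634), or 1.25-fold.

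The other 4 members did not pass in BMDM-HG-exo against PBS. Ccl4 was at 439, 410, 358 and 383 in PBS, at 454, 525, 435 and 544 in BMDM-NG-exo and at 552, 635, 408 and 367 in BMDM-HG-exo, so that BMDM-HG-exo libraries lay on both sides of the PBS mean. Ccl2 was at 50.7, 94.2, 65.9 and 41.7 in PBS, at 101, 88.5, 80.3 and 67.4 in BMDM-NG-exo and at 83.5, 120, 75.6 and 75.1 in BMDM-HG-exo. The log2 differences from PBS were 0.27 for Ccl4 (95% interval 0.01 to 0.53, limma adjusted p = 0.273) and 0.52 for Ccl2 (95% interval -0.01 to 1.06, adjusted p = 0.314).

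Ccl7 was at 10.1, 3.32, 18.3 and 10.9 in PBS, at 26.3, 41.5, 11.0 and 10.7 in BMDM-NG-exo and at 12.1, 24.8, 24.5 and 23.8 in BMDM-HG-exo. Its log2 difference from PBS of 1.07 in BMDM-HG-exo was the largest positive value of the members, but its 95% interval ran from -0.05 to 2.19. Ccl6 differed from PBS by -0.14 in BMDM-HG-exo, with a limma adjusted p of 0.0609, which became 0.0397 without PBS 1 and 0.0453 without BMDM-HG-exo 2 and ran from 0.0173 to 0.253 over 20 alternatives. Those 2 fits alone called it, since elsewhere the p or the fold threshold was missed.

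BMDM-NG-exo against PBS asked whether exosomes from normal glucose had an effect of their own. Cxcl16 and Cxcl10 fell, and 2 of the 9 members were called, against 3.0% of all genes tested. The groups did not overlap for 5 of the 9 members and for 8.27% of all genes tested. The log2 fold changes were -0.29 ± 0.0435 for Cxcl16 (SE; limma adjusted p = 3.05e-05) and -0.85 ± 0.245 for Cxcl10 (adjusted p = 0.0437). Cxcl16 was called in each of the 12 fits without 1 library, but without the variance trend in limma its adjusted p was 0.0665 and that of Cxcl10 0.0567. The Cxcl10 call was also lost without PBS 1, 3 or 4 or without any 1 of the 4 BMDM-NG-exo libraries, with an adjusted p of up to 0.165. For Cxcl2, Ccl3 and Ccl9 the groups were apart but the test was not passed, at log2 differences of -0.59 (adjusted p = 0.157), 0.24 (adjusted p = 0.0839) and -0.06 (adjusted p = 0.531). DESeq2 also called Ccl3 (adjusted p = 0.0264), which no other of the 20 alternatives did (adjusted p of up to 0.232).

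The exosome groups differ in the glucose of the donor cells, and in BMDM-HG-exo against BMDM-NG-exo 0 of the 9 members passed limma. Over all genes 0.0139% were called, the unadjusted p was under 0.05 for 3 members, edgeR called 0 members and DESeq2 called 1. The groups did not overlap for 3 of the 9 members and for 3.86% of all genes tested. The 3 members were Ccl6, Ccl9 and Cxcl10, each lower in BMDM-HG-exo.

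Ccl6 was the member that came closest. It was at 5738, 6385, 5909 and 6129 in PBS, at 6316, 6828, 6291 and 5969 in BMDM-NG-exo and at 5539, 5763, 5267 and 5404 in BMDM-HG-exo. Each BMDM-HG-exo library lay below each BMDM-NG-exo library, and PBS overlapped both groups. The log2 difference was -0.21 ± 0.0438 (SE), with a limma adjusted p of 0.0792, an adjusted p of 0.00833 with the date as a replicate block, and an adjusted p of 0.00599 by DESeq2. The other 18 of 20 alternatives did not call it, and without the variance trend its adjusted p was 0.629.

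The log2 difference between the exosome groups was -0.13 for Ccl9 (limma adjusted p = 0.283) and -0.58 for Cxcl10 (adjusted p = 0.685, 95% interval -1.07 to -0.08). For Cxcl16 it was 0.01, with a 95% interval of -0.08 to 0.10. Cxcl2 had a difference of -0.38 (95% interval -0.82 to 0.06), and the intervals of Ccl2, Ccl3, Ccl4 and Ccl7 included 0.

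The study compared BMDM-HG-exo with PBS and BMDM-NG-exo combined, and 1 of the 9 members, Ccl9, was called in that comparison. The log2 fold change was -0.16 ± 0.0328 (SE; limma adjusted p = 0.0392), beside 0.201% of all genes called. The call was lost without any 1 of the 4 PBS libraries or without BMDM-HG-exo 1, 2 or 3, with an adjusted p of up to 0.248, as well as after quantile normalization (0.0549) and without the variance trend (0.349). The groups did not overlap for Ccl9 and Cxcl10, which are 2 of the 9 members, and for 1.17% of all genes tested. Cxcl10 had the larger log2 difference of -1.0 and a limma adjusted p of 0.0705, which was 0.0336 without BMDM-NG-exo 1 and 0.0193 without BMDM-NG-exo 3. Ccl6 stood at -0.17 (adjusted p = 0.0654), which was 0.0359 without BMDM-NG-exo 3. DESeq2 called 3 members, Ccl9, Cxcl10 (adjusted p = 0.0107) and Ccl6 (adjusted p = 0.0155). Over 20 alternatives the adjusted p ran up to 0.366 for Cxcl10 and 0.379 for Ccl6. For Cxcl10 the combined control pools groups that differ from each other, at means of 132 and 71.5.

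The exosome libraries carry 4 date labels that are shared across the groups, so each member could also be read within a date. Cxcl10, Cxcl2, Cxcl16 and Ccl9 were lower in BMDM-HG-exo than in PBS on each of the 4 dates, with log2 differences of -1.83 to -1.14, -1.58 to -0.57, -0.37 to -0.22 and -0.22 to -0.11. Ccl3 was higher on each of the 4 dates, by 0.24 to 0.40, and it was also higher in BMDM-HG-exo than in BMDM-NG-exo on each date, by 0.05 to 0.10. Ccl6, Ccl9 and Cxcl10 were lower in BMDM-HG-exo than in BMDM-NG-exo on each date, by log2 differences of -0.26 to -0.14, -0.22 to -0.09 and -0.97 to -0.20. Where the groups did not overlap, any pairing of libraries gives the same direction, so the shared direction is no further evidence. This holds for each difference named so far except Ccl3 between the exosome groups, whose ranges overlapped. With the date as a replicate block, that Ccl3 difference was 0.08 (log2, limma adjusted p = 0.894), so it was not called there either. Ccl4 and Ccl2 went both ways between the exosome groups, with 2 dates higher and 2 lower for each.

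**Figure D3:**
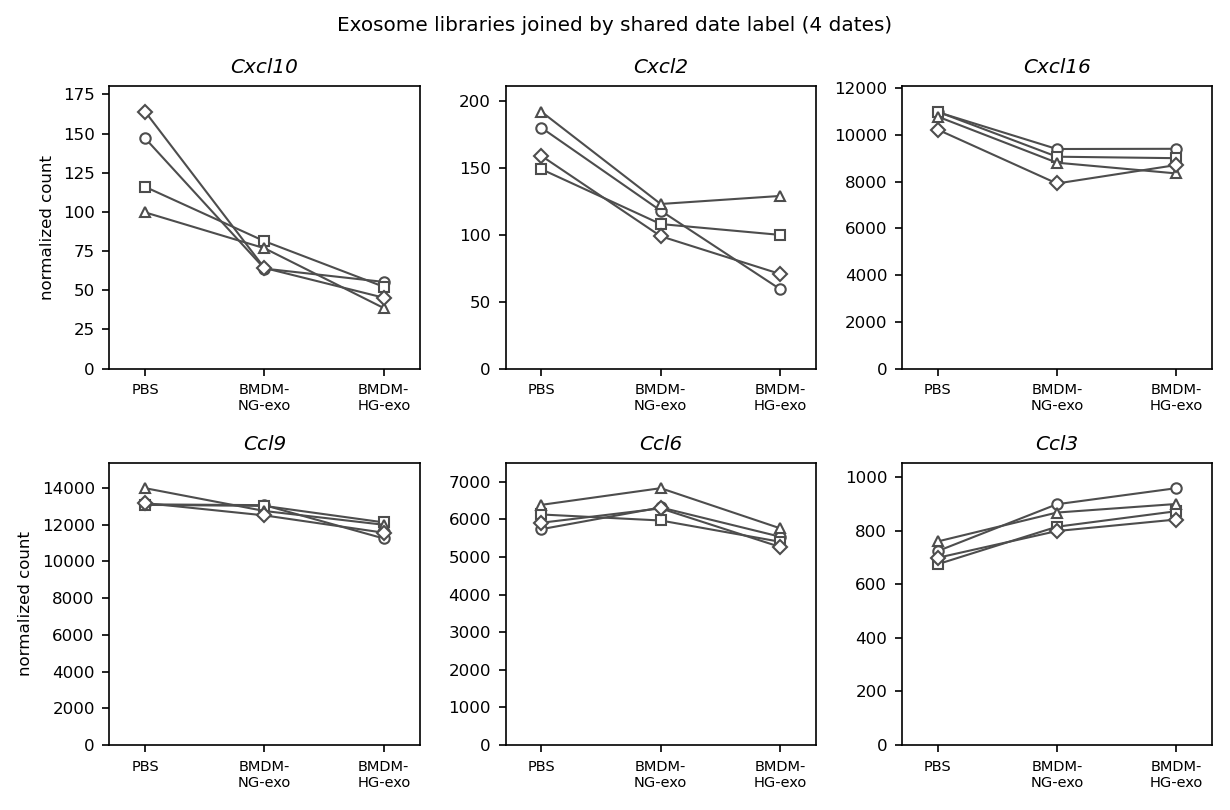
Normalized count (vertical axis, linear from 0) of 6 chemokine genes in the 12 exosome libraries; each line and symbol joins the libraries of 1 of the 4 date labels. All 4 lines fall from PBS to BMDM-NG-exo and from there to BMDM-HG-exo for Cxcl10, whereas those of Ccl6 fall only in the second step except on 1 date.

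Direct exposure to high glucose and exposure to exosomes were then set against each other in 1 fit over the 20 libraries. The contrast was the high minus normal glucose difference less the BMDM-HG-exo minus BMDM-NG-exo difference. It was called for 4 of the 9 members, each time positive, and for 4.74% of the 14449 genes tested. The difference in log2 fold change was 0.40 ± 0.0488 for Ccl9 (SE; limma adjusted p = 2.71e-07), 0.33 ± 0.0587 for Cxcl16 (adjusted p = 0.000218), 1.33 ± 0.296 for Cxcl10 (adjusted p = 0.0035) and 1.03 ± 0.316 for Cxcl2 (adjusted p = 0.0467). With the replicate block the adjusted p of Cxcl10 was 0.0572. The Cxcl2 call was lost in 13 of the 20 fits without 1 library, with an adjusted p of up to 0.123, those without PBS 1 or 3, BMDM-NG-exo 3, BMDM-HG-exo 2 or 4, normal glucose 3 or high glucose 4 being the fits that held it, and it was lost by edgeR (adjusted p = 0.0690) and without the variance trend (adjusted p = 0.0941). For Cxcl16 the log2 difference between the exosome groups was 0.01, beside 0.34 between the glucose groups.

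Across the libraries, 4 members followed one another. After the mean of each experiment was subtracted, the 6 pairs among Ccl9, Cxcl2, Cxcl10 and Cxcl16 had Pearson r between 0.65 and 0.81 over the 20 libraries, and Ccl3 with Ccl4 had 0.54. These were the 7 of 36 pairs above 0.5. After the mean of each group was subtracted instead, 1 of 36 pairs was above 0.5, Ccl9 with Cxcl2 at 0.64. The points share their groups and the size factor of each library, so these values are descriptions. Ccl6 was not above 0.5 with any other member, including its neighbour Ccl9 at 0.16.

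The genes outside the set with the most similar pattern, by the same measure over 20 libraries and at a mean of at least 50, were Rassf4 (r = 0.97), Nfam1 (0.97) and Nfkbia (0.96) for Cxcl16. For Cxcl10 they were Clec4a1 (0.91), Cd74 (0.91) and Zfp263 (0.90). Sdc4 (0.93), Ifit1bl1 (0.85) and Slfn9 (0.84) were closest to Cxcl2, and Nadk (0.88), Skil (0.87) and C3 (0.87) to Ccl9. The first was Stx11 for Ccl4 (0.80), Gdi2 for Ccl6 (0.79), Tmed5 for Ccl7 (0.79) and Smco4 for Ccl2 (0.74).

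Of 24 chemokine receptor genes, 8 were listed. In high glucose Cx3cr1, the fractalkine receptor, rose by 0.73 ± 0.051 (log2, SE) and Ccr2, the receptor of Ccl2 and Ccl7, by 0.22 ± 0.0466. In BMDM-HG-exo both fell against PBS, Cx3cr1 by 0.55 ± 0.0503 and Ccr2 by 0.37 ± 0.056. Both were also called lower in BMDM-NG-exo against PBS, at -0.60 ± 0.0503 and -0.28 ± 0.056, and between the exosome groups limma called 0 of the 8. The call of Ccr2 in high glucose was lost without the variance trend.

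Of 27 other chemokine ligand genes, 9 were listed, and 1 of them was called in high glucose, a share near the 13.3% of all genes tested. This was Pf4, which encodes platelet factor 4 and fell by 1.11 ± 0.123 on the log2 scale (SE; limma adjusted p = 2.39e-08), from 731 ± 120 to 342 ± 79.6 normalized counts (SD). In each of the 4 exosome comparisons limma, edgeR and DESeq2 called 0 of the 9, and the unadjusted limma p was under 0.05 for 1 of them in BMDM-HG-exo against BMDM-NG-exo, 2 against the combined controls, 3 in BMDM-NG-exo against PBS and 3 in BMDM-HG-exo against PBS.

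The genes of the pathways that usually accompany chemokine transcription were counted from fixed lists, chosen with earlier results of these data known. Beside these counts, 13.3% of all genes tested were called in high glucose, 3.0% in BMDM-NG-exo against PBS and 4.84% in BMDM-HG-exo against PBS. All 30 interferon-stimulated genes were tested, and 29 rose in high glucose (median log2 fold change 0.55), with the smallest p-values for Ifit1 at 0.98, Ifit3 at 0.91 and Cmpk2 at 0.87. In BMDM-NG-exo 26 of the 30 fell against PBS (median -0.57), and in BMDM-HG-exo 29 of the 30 fell (median -0.65), with the smallest p-values for Oasl2 at -0.73, Irf7 at -0.89 and Ifit2 at -0.84. Without the variance trend in limma, 16 were called in high glucose and 12 in BMDM-NG-exo against PBS. In BMDM-HG-exo against BMDM-NG-exo limma, edgeR and DESeq2 called 0 of the 30, the unadjusted limma p was under 0.05 for 2, and the median was -0.06. Cxcl10 differed in the direction of this list in high glucose and in both exosome groups against PBS.

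Of 17 NF-κB subunits and inhibitors, 8 rose in high glucose (median 0.13), with Nfkbia at 0.40, Nfkbiz at 0.50 and Tnip3 at 0.41, all 3 of which encode inhibitors or nuclear regulators of the pathway. The count in high glucose was 5 without the variance trend and 4 with the replicate block. In both BMDM-NG-exo and BMDM-HG-exo 8 of 17 fell against PBS, with Nfkbiz at -0.50 and -0.43, and the count for BMDM-NG-exo was 5 without the variance trend. Among cytokine genes often induced together with chemokines, 11 of 17 were tested. Of these limma called 1 in high glucose, a share near the 13.3% of all genes, and DESeq2 called 2. The limma call was Tnf, which rose by 0.74 ± 0.113 (log2, SE). In BMDM-NG-exo against PBS 3 were called, all lower, with Tnf at -0.47 ± 0.122 and Il1b at -0.90 ± 0.237. In BMDM-HG-exo against PBS 2 were called, both lower, with Il1b at -1.13 ± 0.237. The call of Il1b in BMDM-NG-exo was lost without the variance trend and without PBS 2, PBS 3 or BMDM-NG-exo 3.

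Of 9 regulators of mRNA decay, 2 rose and 2 fell in high glucose, among them Zfp36 (tristetraprolin) at -0.29, and 4 fell in BMDM-HG-exo against PBS, with Zc3h12a (regnase-1) at -0.47, Zfp36l1 at -0.33 and Zfp36 at -0.30. In BMDM-NG-exo against PBS 1 was called, Zc3h12a at -0.40. Without the variance trend 1 regulator was called in high glucose and 2 in BMDM-HG-exo against PBS, and the calls of Zfp36 were lost, and after quantile normalization 2 were called in high glucose. Among 15 tested early response factors, 1 rose and 2 fell in high glucose, which is a share near that of all genes and became 1 call after quantile normalization, without the variance trend, with the replicate block or without high glucose 6. Fos and Junb fell in BMDM-HG-exo against PBS at -0.59 and -0.27, and the call of Junb was lost without the variance trend. Of 8 tested proteases that cleave or shed chemokines, 3 rose and 1 fell in high glucose, with Ctss at 0.21 and Ctsb at -0.18, and the 4 calls were lost with the library number as a replicate block, and the count was 2 without the variance trend. In BMDM-HG-exo against PBS, Mmp12 rose by 0.38 ± 0.0602 and Mmp14 fell by 0.81 ± 0.137 (log2, SE). Both were also called in BMDM-NG-exo against PBS, Mmp12 at 0.35 (limma adjusted p = 0.000203) and Mmp14 at -0.49 (limma adjusted p = 0.0352). Between the exosome groups limma called 0 of the 8 proteases and 0 of the 9 decay regulators.

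**Figure D4:**
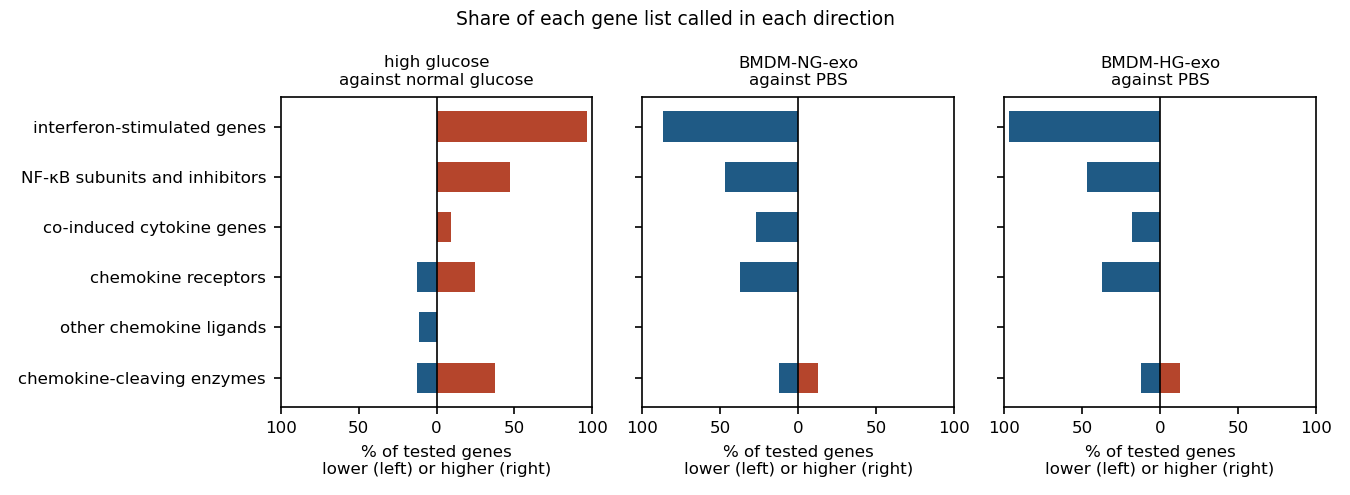
Share of the tested genes of 6 fixed lists that were called lower (bars to the left) or higher (bars to the right) in 3 comparisons, in percent; no bar means that no gene of the list was called. The 30 interferon-stimulated genes are higher in high glucose in 29 cases and lower in BMDM-HG-exo against PBS in 29 cases.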

How the data were processed

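The authors trimmed reads with cutadapt, mapped stranded total RNA libraries to GRCm38 with STAR, counted reads per gene with featureCounts, and divided each library by its DESeq2 size factor. The deposited signal is therefore a scaled count. It was compared as log2 of the value plus 1 with limma 3.58.1 in R 4.3.3 (lmFit, eBayes with trend, two-sided, Benjamini-Hochberg over all genes whose mean reached 10). The 8 glucose and 12 exosome libraries were fitted separately, and all 20 together for the contrast of both effects. Named genes were all members and, per list, at most 3 called genes with the smallest p. For likeness, the 3 genes with the highest r were taken per member. The members and lists were chosen with earlier results of these data known.

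Whole reads were recovered from the smallest step of each column (100% of values within 0.001 of a whole number) and used for totals and for edgeR 4.0.16 and DESeq2 1.42.0, which called 4 and 5 members in high glucose. In the columns of PBS 4 and of BMDM-HG-exo 1 that step is about 1, so scaled and raw counts look alike there. No library was a copy of another of its group (chi-square per degree of freedom 5.19 to 41.9 over 30 pairs). The main limma fits were unpaired, and the date or library number entered only as a replicate block in an alternative fit. For that block and for the reading within a date, same-dated exosome libraries were taken as paired from the labels. Their deviations from the group means correlated at a mean r of 0.012 over 12 pairs, and none was over 0.1. Symbols came from GENCODE M21, which matched 14421 of the 14456 listed genes, and promoters from RefSeq (GRCm38.p6). The fits were also run on simulated counts, drawn independently for each library and without date or preparation effects. That run cannot show whether the p-values hold where libraries share such effects. Small RNA and other assays were not used here. A few genes that the naming rule selects are not reported here.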

Additional observations from a re-analysis of the deposited data

Results flagged for a closer look

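Among 45 groups of 4 libraries, 5 had a library that stood apart from the other 3 by Dixon's test, where chance gives about 1 in 20 groups. Ccl2 was lowest in normal glucose 6, at 62.8 against 86.3 to 89.6 in the others. Ccl6 was highest in high glucose 6, at 6886 against 6477 to 6529. Ccl7 was lowest in BMDM-HG-exo 1, at 12.1 against 23.8 to 24.8. Ccl9 was highest in PBS 2, at 13981 against 13073 to 13169. Cxcl2 was highest in normal glucose 3, at 105 against 62.0 to 66.6. The difference between high and normal glucose departed from that of BMDM-HG-exo minus BMDM-NG-exo by a log2 value of 0.40 for Ccl9, 1.03 for Cxcl2, 1.33 for Cxcl10 and 0.33 for Cxcl16, each tested in 1 limma fit (adjusted p = 2.71e-07, 0.0467, 0.0035 and 0.000218).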

How the results depend on the processing

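The 5 members called in BMDM-HG-exo against PBS stayed at 5 under the 8 planned settings other than leaving out a library. Without the variance trend, the number of genes called went from 1914 to 654 in high glucose, from 29 to 1 against the combined controls, from 432 to 95 in BMDM-NG-exo against PBS, from 698 to 295 in BMDM-HG-exo against PBS and from 685 to 324 in the contrast of both effects, and from 2 lower genes to 1 higher gene between the exosome groups. Members called were then 0 against the combined controls and 0 in BMDM-NG-exo against PBS. Against the combined controls, a pseudocount of 8 gave 50 genes, quantile normalization 19 genes and 0 members, and DESeq2 127 genes and 3 members. With BMDM-NG-exo or PBS as the only control 0 or 5 members were called. Between the exosome groups, 5 genes were called with a pseudocount of 8, 5 with TMM factors, 1 by edgeR and 22 by DESeq2, which called 1 member. Quantile normalization moved the split of higher against lower genes from 1116 and 798 to 789 and 872 in high glucose, from 10 and 19 to 9 and 10 against the combined controls and from 472 and 213 to 322 and 290 in the contrast.

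With the date, or in the glucose experiment the library number (shared by 2 pairs, mean r 0.007, which is a number only), as a replicate block, 788 genes were called in high glucose, 296 in the contrast and 22 genes and 1 member between the exosome groups. The block ended the calls of Ccl4 in high glucose (adjusted p = 0.113) and Cxcl10 in the contrast, and added Cxcl2 in high glucose (adjusted p = 0.0421) and Ccl6 between the exosome groups. It changed no other call of a member. In the glucose experiment only the 2 shared pairs enter the blocked estimate.

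Leaving out 1 library gave 0 to 3 members and 1 to 204 genes against the combined controls, 1 to 7 genes between the exosome groups and 1 to 2 members in BMDM-NG-exo against PBS. Only differences that were not called turned sign. Ccl2 in high glucose was 0.025 by quantiles and ran from -0.20 to 0.13 without 1 library. Ccl7 in high glucose was 0.09 by edgeR and 0.088 by DESeq2 and ran from -0.60 to 0.29. Between the exosome groups Ccl4 was 0.0053 by edgeR and 0.0051 by DESeq2 (-0.16 to 0.10 without 1 library), Ccl7 -0.073 and -0.072 (-0.16 to 0.46), Ccl2 ran from -0.096 to 0.15 and Cxcl16 from -0.037 to 0.05. Ccl4 ran from -0.013 to 0.25 against the combined controls. In the contrast Ccl3 was -0.044 with the block, Ccl7 0.16 by edgeR and by DESeq2 (-0.69 to 0.19), and Ccl2 ran from -0.26 to 0.074. The cause was not tested. The depth limits Ccl7 most, with 3 to 46 reads a library.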
